A study of Mus musculus with 12 samples.

Results

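The 9 genes described here encode the collagens of basement membranes and of the fibrils and zones attached to them, which are the collagen IV chains Col4a1 to Col4a6, Col7a1, Col15a1 and Col18a1. They were taken by name from the 35523 genes that the libraries cover, and all 9 were among the 18028 genes with enough counts for a test. Primary cardiac fibroblasts of adult C57BL/6J mice of both sexes, wild type in every group, were transfected with an siRNA against histone H1.0 or with scramble siRNA and given TGF-β or vehicle in low-serum medium. The groups, each of 3 libraries, were histone H1.0 siRNA with TGF-β (10 ng ml−1), scramble siRNA with the same dose of TGF-β, histone H1.0 siRNA with vehicle and scramble siRNA with vehicle. RNA came from cultured cells outside the heart, so a culture can hold cells of other types that were isolated with the fibroblasts, and the labels do not say from how many animals each library was made. An siRNA lowers a transcript without removing it.

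Collagen IV is the network-forming collagen of the basement membrane, the thin sheet of laminin, collagen IV, nidogen and perlecan that surrounds capillaries and cardiomyocytes. Its chains assemble as trimers, and the most widespread trimer joins chains made by Col4a1 and Col4a2. The 6 genes lie as head-to-head pairs, so that both genes of a pair start from a common promoter region and are read in opposite directions. Collagen VII forms the anchoring fibrils that tie epithelial basement membranes to the connective tissue below, and the collagens XV and XVIII are proteoglycans of the basement membrane zone whose ends are cut off as restin and endostatin.

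Library totals lay between 19.9 and 36.3 M estimated reads with a median of 24.2 M. The 3 libraries with histone H1.0 siRNA and TGF-β (36.2 to 36.3 M) and H1.0 siRNA vehicle replicate 3 (35.5 M) were the deepest. No other library exceeded 24.4 M. The transcript Col4a2-202 had 261 to 688 reads in the deepest libraries and 7.57 or fewer in all others. Under TGF-β the siRNA therefore cannot be told apart from a difference in how the libraries were made or sequenced. The same holds for knockdown cells with TGF-β against scramble cells with vehicle. For TGF-β in knockdown cells and for the interaction it holds in part. H1f0, the gene of histone H1.0, had normalized counts of 510 to 876 with its siRNA and TGF-β and 2806 to 2922 with scramble and TGF-β. It had 600 to 1075 with its siRNA and vehicle and 2515 to 3033 with scramble and vehicle. Replicate 3 stood apart in each group, since chi-square per degree of freedom was 27.4 to 69.3 between it and the others of its group and 9.41 to 17 between replicates 1 and 2. Fibroblast markers summed to between 14820 and 19310 TPM in every library, and each marker of the list was above 1 TPM in all of them.

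Col4a1 and Col4a2 were by far the most abundant of these collagens. Levels were compared between genes in TPM, which corrects for transcript length, over the full-length coding transcripts of at least 4000 bases. The median TPM of the 12 libraries was 1013 for Col4a1 (638 to 1300), 689 for Col4a2 (432 to 968) and 191 for Col4a5 (115 to 291). Of the TPM of the 6 collagen IV genes, Col4a1 held 49.4% to 54.1% in each library, Col4a2 34.4% to 37.2%, Col4a5 8.67% to 11.5% and Col4a6 1.43% to 1.96%.

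Col15a1 (median 48.2 TPM, 5.02 to 105), Col18a1 (34.9 TPM, 15.2 to 68.8) and Col4a6 (32.9 TPM, 22.0 to 45.0) overlapped and are not ordered beyond their spread. Col7a1 was low, with a median of 2.93 TPM and a range of 1.39 to 33.1. Col4a4 (median 0.573 TPM, 0.158 to 1.58) and Col4a3 (0.381 TPM, 0.131 to 0.970) were based on few reads and overlapped too. Their chains build, with that of Col4a5, the network of the glomerular basement membrane in the kidney.

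**Figure D1:**
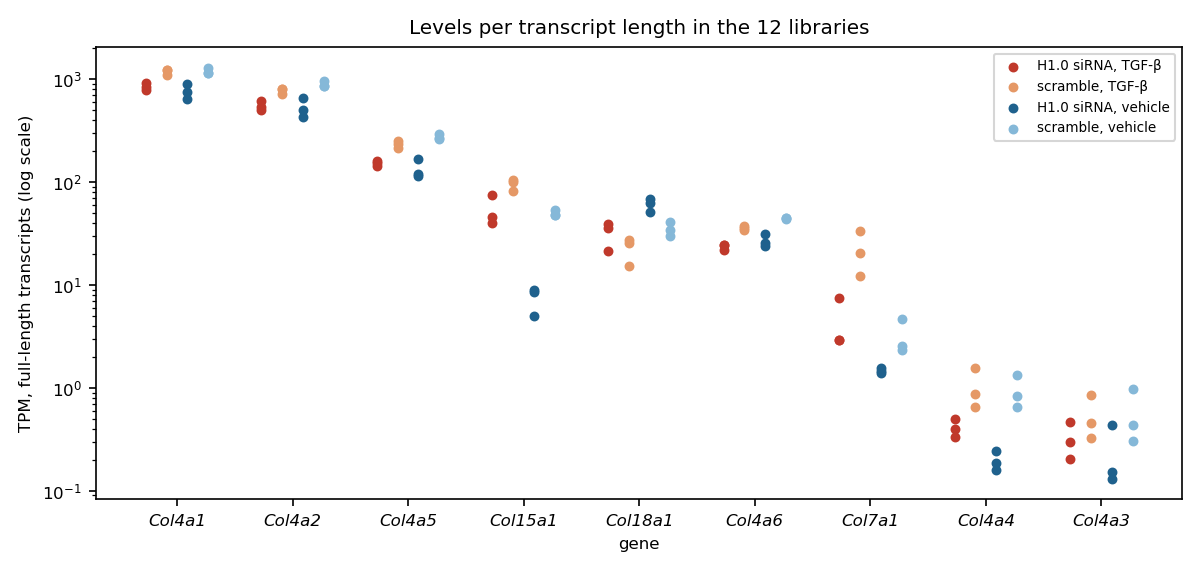
TPM of the 9 genes over their full-length coding transcripts (vertical axis, log scale) in the 12 libraries, with 1 point per library and the 4 groups side by side for each gene, ordered by the median. Col4a1 and Col4a2 lie between 432 and 1300 TPM, and Col4a3 and Col4a4 at 1.58 TPM or less.

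The question put to TGF-β, the cytokine used here to activate the fibroblasts, was which of these collagens it changes in scramble cells and in cells with less of the linker histone. In scramble cells it raised Col7a1 and Col15a1, and neither Col4a1 nor Col4a2 passed the test. Normalized counts, scaled by TMM so that libraries compare, were tested with edgeR's quasi-likelihood test at an adjusted p under 0.01 over all genes. It called 2 of the 9 genes higher and 0 lower, where 10.5% of all genes tested were called higher and 7.94% lower. In either direction 4 of 9 had an unadjusted p under 0.05 (41.9% of all genes) and 2 of 9 were called with DESeq2 (29.6% of the genes it tested). The median log2 fold change was 0.00 over the 9 genes and −0.01 over all genes. Without replicate 3 of every group, an alternative added after seeing the data, the same test called 2 of the 9 genes here and 21.6% of all genes.

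Col7a1, the anchoring fibril collagen, had normalized counts of 1718, 2712 and 4663 in scramble cells with TGF-β, against 308, 362 and 598 in scramble cells with vehicle. Every TGF-β library was above every vehicle library, with replicate 3 highest in both groups. The means were 3031 ± 1498 with TGF-β and 423 ± 154 with vehicle (SD, n = 3 each), which is 2.84 on the log2 scale (standard error 0.45, adjusted p = 8.5e-04 by edgeR). This was the widest response to TGF-β among the 9 genes in scramble cells.

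Col15a1, the proteoglycan collagen found around capillaries and muscle cells, had 7933, 5965 and 7640 counts in scramble cells with TGF-β, against 3371, 3461 and 3811 with vehicle. The groups did not overlap. Its log2 fold change was 1.02 (standard error 0.24, adjusted p = 0.0073 by edgeR). This call is close to the threshold, and it was lost on leaving out any of the 6 scramble libraries or H1.0 siRNA vehicle replicate 1 (adjusted p from 0.0102 to 0.033) and with an offset for transcript length (adjusted p = 0.013).

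Col18a1, the source of endostatin, had 1933, 1984 and 1159 counts in scramble cells with TGF-β, against 2423, 2977 and 2156 with vehicle. The TGF-β libraries were all lower, by −0.57 on the log2 scale (standard error 0.24), and an adjusted p of 0.087 by edgeR missed the threshold. Same-numbered libraries deviated together in this comparison, and a fit blocked on that number called Col18a1 lower (log2 fold change −0.60, adjusted p = 0.0019). The block then called 2 of the 9 genes higher and 1 lower, where it called 15.4% of all genes higher and 13% lower.

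The collagen IV genes moved little with TGF-β in scramble cells. Col4a1 averaged 113440 ± 10618 with TGF-β and 109820 ± 9587 with vehicle (log2 fold change 0.05, standard error 0.15). Col4a2 averaged 71325 ± 6563 with TGF-β and 78781 ± 6433 with vehicle (−0.14, standard error 0.16). Both sets of libraries overlapped. Col4a5 and Col4a6 had fold changes of −0.17 and −0.27 on the log2 scale (adjusted p = 0.43 and 0.10 by edgeR), and all TGF-β libraries of both genes lay below all vehicle libraries, for Col4a5 by a gap of only 23492 to 23554 counts.

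**Figure D2:**
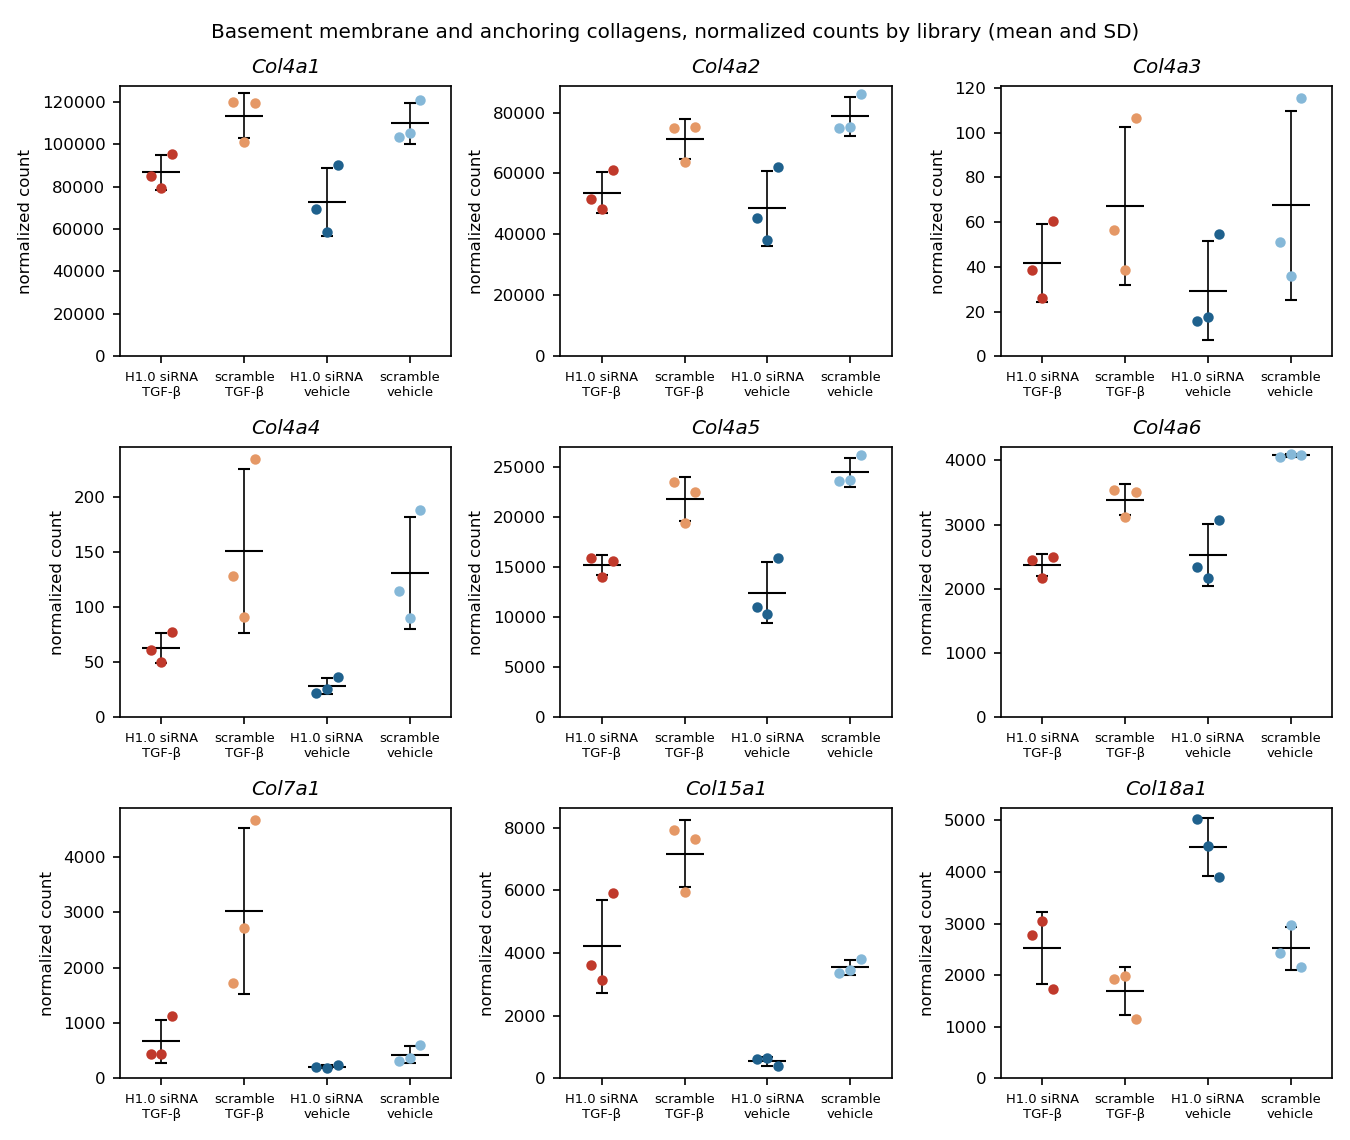
TMM-normalized counts of the 9 genes (vertical axis of each panel, from 0) in the 4 groups of 3 libraries, with 1 point per library and the mean and SD of each group. Col15a1 lies between 387 and 644 counts with H1.0 siRNA and vehicle and at 3140 or more elsewhere, and Col18a1 is highest in the same group (3913 to 5037).

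In cells with histone H1.0 siRNA, TGF-β raised Col15a1 and no other of the 9 genes by the same test, which called 9.14% of all genes higher and 6.6% lower. The median log2 fold change was 0.29 over the 9 genes and −0.01 over all genes, and without replicate 3 of every group 4 of the 9 genes and 17.8% of all genes were called. In either direction 4 of 9 had an unadjusted p under 0.05 (39.1% of all genes). Col15a1 had 3604, 3140 and 5920 counts with H1.0 siRNA and TGF-β, against 613, 644 and 387 with H1.0 siRNA and vehicle. Its log2 fold change was 2.95 (standard error 0.25, adjusted p = 2.6e-05 by edgeR). With TGF-β the knockdown libraries thus spanned the 3371 to 3811 counts of scramble cells with vehicle.

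Col7a1 had 441, 444 and 1121 counts with H1.0 siRNA and TGF-β, against 203, 180 and 238 with H1.0 siRNA and vehicle. The groups did not overlap, and the log2 fold change of 1.68 (standard error 0.45) had an adjusted p of 0.016 by edgeR. Col18a1 had 2784, 3051 and 1738 counts with H1.0 siRNA and TGF-β, against 5037, 4504 and 3913 with H1.0 siRNA and vehicle. Its log2 fold change was −0.83 (adjusted p = 0.022 by edgeR), again with no overlap between the groups. Col4a4 had 61.3, 50.1 and 77.7 counts with TGF-β, against 22.5, 26.0 and 36.2 with vehicle, a log2 fold change of 1.14 (adjusted p = 0.0498 by edgeR).

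These genes passed once the replicate number was a block, which in this comparison the libraries shared. The block called 3 of the 9 genes higher, adding Col7a1 (log2 fold change 1.60, adjusted p = 1.2e-04) and Col4a4 (1.18, adjusted p = 7.3e-04), and 1 lower, Col18a1 (−0.87, adjusted p = 1.5e-04). It called 14.2% of all genes higher and 12.6% lower. DESeq2, which called 27.8% of the genes it tested, also called Col7a1 and Col18a1 (adjusted p = 0.0028 and 0.0021). In the fit without a block, both passed without scramble TGF-β replicate 3 (adjusted p = 0.00998 and 0.0098), and Col4a5 passed as higher without H1.0 siRNA vehicle replicate 3 (log2 fold change 0.51, adjusted p = 0.0041).

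**Figure D3:**
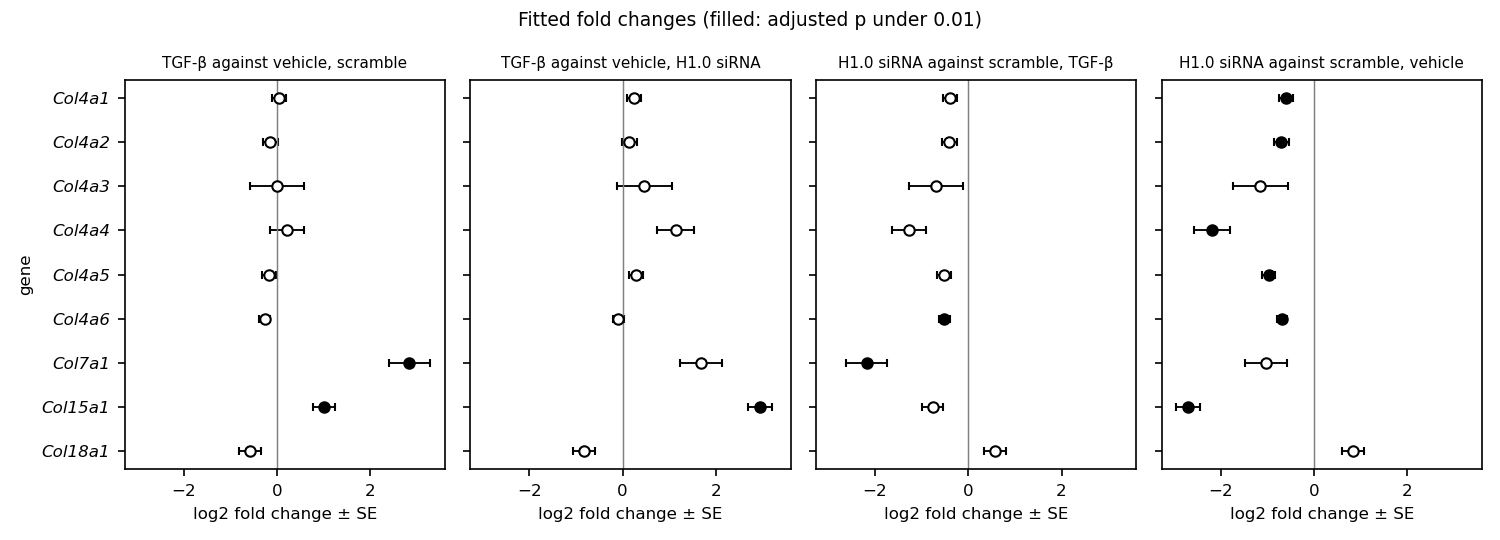
Fitted log2 fold changes (horizontal axis) with their standard errors for the 9 genes (rows) in the 4 comparisons, from edgeR without a block. Filled points passed an adjusted p under 0.01, which was 2, 1, 2 and 6 genes from left to right.

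Whether the response to TGF-β differed between knockdown and scramble cells was tested as an interaction. None of the 9 genes passed it with edgeR, which called 0.0333% of all genes higher and 0.0111% lower. At an unadjusted p under 0.05 were 2 of 9, Col15a1 and Col4a5 (11.9% of all genes), and DESeq2 called 1, Col15a1 (1.77% of the genes it tested). The response of Col15a1 to TGF-β was larger by 1.94 on the log2 scale in knockdown than in scramble cells (standard error 0.34, adjusted p = 0.040 by edgeR, 1.7e-05 by DESeq2). For Col7a1 the difference was −1.16 (adjusted p = 0.49), for Col4a4 0.92 (adjusted p = 0.54) and for Col18a1 −0.25 (adjusted p = 0.84 by edgeR).

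Knockdown of histone H1.0 was next compared with scramble in cells given TGF-β. Mean counts of the collagen IV genes, Col7a1 and Col15a1 were lower and that of Col18a1 higher with the siRNA. By edgeR's test 2 genes fell, Col7a1 and Col4a6, and 0 of the 9 rose, where 11.3% of all genes were called lower and 13% higher. In either direction 8 of 9 had an unadjusted p under 0.05 (43.8% of all genes) and 5 of 9 were called with DESeq2 (31.2% of the genes it tested). The median log2 fold change was −0.52 over the 9 genes and 0.04 over all genes, and without replicate 3 of every group 6 of the 9 genes and 25.2% of all genes were called.

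Col7a1 had 441, 444 and 1121 counts with H1.0 siRNA and TGF-β, against 1718, 2712 and 4663 with scramble and TGF-β. Even the highest knockdown library was below the lowest scramble library. The log2 fold change was −2.18 (standard error 0.43, adjusted p = 0.0022 by edgeR). Without H1.0 siRNA TGF-β replicate 1 or replicate 2 it was −1.95 and −1.96 and just missed the threshold (adjusted p = 0.012 and 0.011), and with an offset for transcript length it was −2.04 (adjusted p = 0.016).

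Col4a6, a collagen IV chain of smooth muscle and some epithelial basement membranes, had 2443, 2176 and 2496 counts with H1.0 siRNA and TGF-β, against 3542, 3122 and 3511 with scramble and TGF-β. Its log2 fold change was −0.52 (standard error 0.11, adjusted p = 0.0044 by edgeR). Leaving out replicate 1 or 3 of scramble with TGF-β, or replicate 1 or 2 of H1.0 siRNA with TGF-β, took it past the threshold (adjusted p from 0.013 to 0.020). Its pair partner Col4a5 had 15927, 14043 and 15583 counts with H1.0 siRNA and TGF-β, against 23492, 19356 and 22497 with scramble and TGF-β. The log2 fold change of Col4a5 was also −0.52 (standard error 0.15, adjusted p = 0.016 by edgeR), and it passed without H1.0 siRNA vehicle replicate 3 (adjusted p = 0.0011).

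Col4a1 averaged 86653 ± 8192 with H1.0 siRNA and TGF-β and 113440 ± 10618 with scramble and TGF-β (log2 fold change −0.39, standard error 0.15, adjusted p = 0.063 by edgeR). Col4a2 averaged 53742 ± 6659 with H1.0 siRNA and 71325 ± 6563 with scramble (−0.41, standard error 0.16, adjusted p = 0.075). In both genes the knockdown and scramble libraries did not overlap. Col15a1 had 3604, 3140 and 5920 counts with H1.0 siRNA, against 7933, 5965 and 7640 with scramble (−0.77, adjusted p = 0.024 by edgeR, or 0.0017 without H1.0 siRNA TGF-β replicate 3).

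Same-numbered libraries deviated together here as well. With the replicate number as a block 6 of the 9 genes were lower and 1 was higher, where 16% of all genes were called lower and 17.6% higher. The genes added were Col4a1 (log2 fold change −0.39, adjusted p = 0.0039), Col4a2 (−0.41, adjusted p = 0.0046), Col4a4 (−1.20, adjusted p = 2.1e-04), Col4a5 (−0.52, adjusted p = 0.0021) and, as the gene that rose, Col18a1 (0.58, adjusted p = 0.0020).

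Without TGF-β the siRNA lowered most of the collagen IV genes and Col15a1. Of the 9 genes 6 fell and 0 rose by edgeR's test, where 11.2% of all genes were called lower and 13.4% higher. In either direction 8 of 9 had an unadjusted p under 0.05 (44.4% of all genes) and 7 of 9 were called with DESeq2 (34.6% of the genes it tested). The median log2 fold change was −0.97 over the 9 genes and 0.00 over all genes, and without replicate 3 of every group 7 of the 9 genes and 25.1% of all genes were called. The genes that fell were Col15a1, Col4a1, Col4a2, Col4a4, Col4a5 and Col4a6.

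Col15a1 had 613, 644 and 387 counts with H1.0 siRNA and vehicle, against 3371, 3461 and 3811 with scramble and vehicle. This was the widest difference in these cells among the 9 genes, at −2.70 on the log2 scale (standard error 0.25, adjusted p = 1.6e-05 by edgeR). It was called with each library left out in turn.

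Col4a5 had 11047, 10335 and 15929 counts with H1.0 siRNA and vehicle, against 23554, 23641 and 26121 with scramble and vehicle (log2 fold change −0.97, standard error 0.15, adjusted p = 3.7e-04 by edgeR). Col4a6 had 2342, 2169 and 3078 with H1.0 siRNA, against 4046, 4104 and 4081 with scramble (−0.69, adjusted p = 7.3e-04 by edgeR). Both sets were apart, and the scramble libraries of Col4a6 had an SD of only 29.1 counts.

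Col4a1 had 69503, 58811 and 90087 counts with H1.0 siRNA and vehicle, against 103470, 105150 and 120850 with scramble and vehicle (log2 fold change −0.59, standard error 0.15, adjusted p = 0.0088 by edgeR). Col4a2 had 45381, 38119 and 62155 with H1.0 siRNA, against 74789, 75351 and 86203 with scramble (−0.70, standard error 0.16, adjusted p = 0.0061). Neither gene overlapped between the groups, and H1.0 siRNA vehicle replicate 3 was the highest knockdown library of both. The call of Col4a1 held only with all libraries or without replicate 3 of either knockdown group (adjusted p from 0.0109 to 0.035 without any other library), and it was lost with the length offset (adjusted p = 0.019). That of Col4a2 was lost without any scramble vehicle library or without H1.0 siRNA vehicle replicate 1 or 2 (adjusted p from 0.013 to 0.027).

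Col4a4 had 22.5, 26.0 and 36.2 counts with H1.0 siRNA and vehicle, against 114, 90.6 and 188 with scramble and vehicle (log2 fold change −2.19, standard error 0.39, adjusted p = 0.0012 by edgeR). Col4a3 had 15.7, 17.8 and 54.7 with H1.0 siRNA, against 51.2, 35.99 and 115 with scramble (−1.15, standard error 0.59, adjusted p = 0.16), and its groups overlapped. Col7a1 had 203, 180 and 238 with H1.0 siRNA, against 308, 362 and 598 with scramble (−1.02, adjusted p = 0.10 by edgeR). Col18a1 went the other way, with 5037, 4504 and 3913 counts with H1.0 siRNA, against 2423, 2977 and 2156 with scramble, a log2 fold change of 0.83 (adjusted p = 0.016 by edgeR). It was called with DESeq2 (adjusted p = 0.0023) and without replicate 3 of scramble with TGF-β or of H1.0 siRNA with TGF-β (adjusted p = 0.0068 and 0.0059).

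In such bulk RNA, fewer cells of a type and less RNA per cell cannot be told apart. Pericytes, endothelial cells and Schwann cells also make basement membrane, so markers of each were summed. The 10 mural cell markers summed to 138 to 186 TPM with H1.0 siRNA and TGF-β and 320 to 408 TPM with scramble and TGF-β, and to 92.0 to 122.7 TPM with H1.0 siRNA and vehicle and 201 to 300.1 TPM with scramble and vehicle. These sums were led by Pdgfrb (78.4 to 271 TPM), which fibroblasts express too, while Kcnj8, Higd1b and Vtn stayed below 1 TPM in every library. Of the 9 tested, Pdgfrb and Mcam were lower with the siRNA, under TGF-β by −0.81 and −3.44 on the log2 scale (adjusted p = 6.1e-04 and 1.0e-06 by edgeR) and with vehicle by −1.22 and −1.66 (adjusted p = 4.3e-05 and 1.1e-04). Of all genes, 11.3% were called lower and 13% higher with the siRNA under TGF-β, and 11.2% and 13.4% with vehicle. Rgs5, Cspg4 and Notch3 averaged 286, 912 and 474 counts with H1.0 siRNA and TGF-β and 1178, 1672 and 735 with scramble and TGF-β. They were not called there. Des, not called either, went the other way, with means of 83.5 with H1.0 siRNA and TGF-β and 62.8 with scramble and TGF-β. The 12 endothelial markers summed to 41.7 to 49.2 TPM with H1.0 siRNA and TGF-β and 51.8 to 67.0 TPM with scramble and TGF-β. With vehicle they summed to 50.03 to 63.9 TPM with H1.0 siRNA and 52.3 to 82.9 TPM with scramble. Tek, which reached the highest TPM of these markers (5.38 to 36.3), was the only one of the 12 called with the siRNA, against the shares of all genes above. It was lower under TGF-β by −1.19 on the log2 scale (adjusted p = 0.0020 by edgeR) and with vehicle by −1.995 (adjusted p = 7.7e-05). The median log2 fold change of the endothelial list with the siRNA was 0.29 under TGF-β and 0.00 with vehicle. The 8 Schwann cell markers summed to 5.17 to 8.02 TPM with H1.0 siRNA and TGF-β, 11.2 to 13.2 TPM with scramble and TGF-β, 7.59 to 9.13 TPM with H1.0 siRNA and vehicle and 12.4 to 15.7 TPM with scramble and vehicle, and of these Sox10, Kcna1 and Gfra3 stayed below 1 TPM. The 10 cardiomyocyte markers, of which 7 were below 1 TPM everywhere and Tnnt2 led, summed to 14.7 to 17.4 TPM with H1.0 siRNA and TGF-β, 132 to 164 TPM with scramble and TGF-β, 21.9 to 24.4 TPM with H1.0 siRNA and vehicle and 177 to 198 TPM with scramble and vehicle. The part of these cells in the results was not tested.

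Across the study's widest contrast, knockdown cells with TGF-β against scramble cells with vehicle, which uses libraries of the comparisons above, Col4a5 and Col4a6 fell and 0 of the 9 genes rose by edgeR. In this contrast 15.4% of all genes were called lower and 19% higher. All of its knockdown libraries were deeper (36.2 to 36.3 M estimated reads) than its scramble libraries (24.4 M or less). Its differences therefore cannot be told apart from a difference in how the libraries were made or sequenced. In either direction 5 of 9 had an unadjusted p under 0.05 (52.2% of all genes) and 3 of 9 were called with DESeq2 (42.4% of the genes it tested). The log2 fold change was −0.69 for Col4a5 (adjusted p = 0.0024 by edgeR, or 0.011 without H1.0 siRNA TGF-β replicate 2) and −0.78 for Col4a6 (adjusted p = 2.0e-04). Col4a2 had −0.55 (adjusted p = 0.016 by edgeR), and passed without H1.0 siRNA vehicle replicate 2 or 3 (adjusted p = 0.0087 and 0.0031). Col15a1 (0.25, adjusted p = 0.42) and Col18a1 (0.00, adjusted p = 0.99) had counts that overlapped between these groups.

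The paired genes of collagen IV start close to each other. On GRCm38, Col4a1 lies on chromosome 8 from 11198423 to 11312826 on the minus strand and Col4a2 from 11312805 to 11449287 on the plus strand, so that their annotated first exons overlap by 22 bases. The sources used here do not say whether strand was used, and without it reads within that overlap cannot be assigned to either gene. Col4a4 (chromosome 1, 82448423 to 82586849, minus strand) and Col4a3 (82586921 to 82722059, plus strand) start 72 bases apart. That start of Col4a3 is of a transcript listed at 0 reads in every library. The transcript that held all reads of Col4a3 starts at 82586976. Col4a6 (chromosome X, 141165403 to 141474076, minus strand) and Col4a5 (141475385 to 141689234, plus strand) start 1309 bases apart. The reference sequences of these intervals, from RefSeq's promoter windows on GRCm38.p6, are shown because the pairs are compared next. Capitals mark the overlap of the first exons in the first sequence, a CCAAT box in that of Col4a5 and a GC box in that of Col4a6. The stretch between the annotated starts of Col4a4 and Col4a3 holds neither. Nor does the window of Col4a4, which runs to 82587099, past the start of the Col4a3 transcript with reads.
Col4a1 and Col4a2 starts, chr8:11312801-11312830, plus strand: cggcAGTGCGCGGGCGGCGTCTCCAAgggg
Col4a4 and Col4a3, between the starts, chr1:82586850-82586920, minus strand: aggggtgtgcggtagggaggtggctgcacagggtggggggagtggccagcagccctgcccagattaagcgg
Col4a5, upstream of the start, chrX:141475169-141475384, plus strand: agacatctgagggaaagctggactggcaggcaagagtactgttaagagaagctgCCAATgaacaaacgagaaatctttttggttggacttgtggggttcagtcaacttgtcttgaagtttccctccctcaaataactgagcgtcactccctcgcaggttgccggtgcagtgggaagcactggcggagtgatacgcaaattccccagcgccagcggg
Col4a6, upstream of the start, chrX:141474077-141474326, minus strand: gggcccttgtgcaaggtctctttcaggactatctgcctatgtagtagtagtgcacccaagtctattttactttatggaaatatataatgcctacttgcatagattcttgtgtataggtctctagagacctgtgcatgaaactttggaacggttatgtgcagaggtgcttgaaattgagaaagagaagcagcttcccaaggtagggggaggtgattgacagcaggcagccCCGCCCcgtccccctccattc

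Each promoter window ran from 250 bases before to 50 after a RefSeq start, and 9 windows of 8 of these genes were found. The windows of Col4a1 and Col4a2 were 74% and 73.7% G or C, against a median of 52.7% over all 32851 windows, and those of Col4a5 and Col4a6 were 52.7% and 48.3%. A GC box (GGGCGG, either strand) was found in the windows of Col4a1, Col4a2, Col4a5, Col4a6, Col7a1 and the upstream start of Col18a1, and in 35.7% of all windows. A CCAAT box (CCAAT, either strand) was found in those of Col4a1, Col4a2, Col4a5, Col7a1 and the upstream start of Col18a1, and in 37.4% of all windows. The windows of Col4a1 and Col4a2 overlap, so they share bases, and no GC box overlapped a CCAAT box. None of the 9 windows held TATAAA, the AP-1 site TGANTCA, the SMAD palindrome GTCTAGAC or a CArG box, searched on both strands, which 13.6%, 7.81%, 0.213% and 1.63% of all windows did.

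Because both genes of a pair come from the same library, their ratio needs no scaling between libraries. The ratio of Col4a1 to Col4a2 counts was 1.64, 1.65 and 1.56 with H1.0 siRNA and TGF-β, and 1.59, 1.59 and 1.59 with scramble and TGF-β. It was 1.53, 1.54 and 1.45 with H1.0 siRNA and vehicle, and 1.383, 1.396 and 1.402 with scramble and vehicle. In both siRNA arms the ratio was higher in every TGF-β library than in every vehicle library, and the spread within the scramble groups was very small (SD 0.00395 with TGF-β and 0.00939 with vehicle).

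Over both arms the log2 ratio of Col4a1 to Col4a2 was higher by 0.15 with TGF-β than with vehicle (means 0.68 and 0.54, exact permutation p = 0.005, adjusted p = 0.015 over 6 tests, two-sided, with 0.005 the smallest p possible). It was higher by 0.07 with H1.0 siRNA than with scramble (means 0.64 and 0.57, exact permutation p = 0.02, adjusted p = 0.03), a call that was lost with TPM in place of counts (0.06, adjusted p = 0.054). With vehicle the means were 0.59 for H1.0 siRNA and 0.48 for scramble. With TGF-β they were 0.69 and 0.67, and the libraries overlapped. Neither gene alone passed edgeR's test for TGF-β. In sign-flip tests paired by replicate number both differences missed the threshold (adjusted p = 0.0625 with TGF-β and 0.094 with the siRNA, by exact permutation). The 6 pairs limit the smallest p of such tests. With TGF-β all 6 pairs went the same way, the strongest result this test allows, so that miss decides nothing.

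The ratio of Col4a5 to Col4a6 was 6.52, 6.45 and 6.24 with H1.0 siRNA and TGF-β, and 6.63, 6.20 and 6.41 with scramble and TGF-β. It was 4.72, 4.77 and 5.18 with H1.0 siRNA and vehicle, and 5.82, 5.76 and 6.40 with scramble and vehicle. The knockdown libraries with vehicle were lowest of all. The log2 ratio was higher by 0.25 with TGF-β than with vehicle (means 2.68 and 2.44, exact permutation p = 0.01, adjusted p = 0.02, or 0.0625 in the paired test). It averaged 2.68 with TGF-β and 2.29 with vehicle in knockdown cells, and 2.68 and 2.58 in scramble cells, where the libraries overlapped. It differed by −0.15 between H1.0 siRNA and scramble (means 2.48 and 2.63, exact permutation p = 0.05, adjusted p = 0.06).

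The rare pair of Col4a3 and Col4a4 rested on 14 to 94 and 20 to 207 reads per library. Its ratio was 0.633, 0.523 and 0.780 with H1.0 siRNA and TGF-β, and 0.440, 0.424 and 0.454 with scramble and TGF-β. It was 0.70, 0.682 and 1.51 with H1.0 siRNA and vehicle, and 0.448, 0.397 and 0.614 with scramble and vehicle. Every knockdown library was above every scramble library of the same treatment, with a log2 ratio higher by 0.72 with H1.0 siRNA than with scramble (means −0.40 and −1.13, exact permutation p = 0.005, adjusted p = 0.015, or 0.0625 in the paired test). With TGF-β against vehicle it differed by −0.31 (means −0.92 and −0.61, exact permutation p = 0.22, adjusted p = 0.22).

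**Figure D4:**
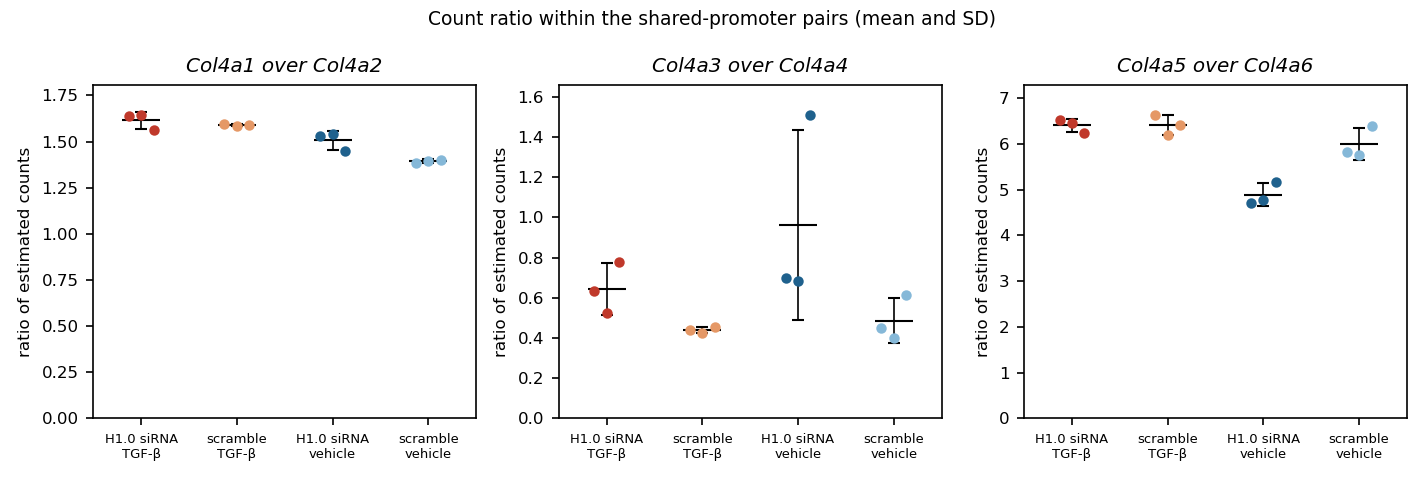
Ratio of the estimated counts within each promoter-sharing pair (vertical axes, from 0) in the 4 groups of 3 libraries, with 1 point per library and the mean and SD of each group. The ratio of Col4a1 to Col4a2 is lowest in scramble cells with vehicle (1.39 ± 0.00939) and that of Col4a5 to Col4a6 in knockdown cells with vehicle (4.89 ± 0.252).

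Col7a1 (chromosome 9, 108953586 to 108984875, plus strand) and Col15a1 (chromosome 4, 47208161 to 47313167, plus strand) were the genes that TGF-β raised in scramble cells, and the 250 bases before their RefSeq starts are shown for that reason. Capitals mark a CCAAT box, on the reverse strand as ATTGG, and a GC box in Col7a1, and no motif of those searched was found in the window of Col15a1. That window was set on a RefSeq start at 47208012 and ended at 47208061. The transcript with 97.4% of the reads of Col15a1 starts at 47208161, and the bases directly before it were not searched.
Col7a1, upstream of the start, chr9:108953336-108953585, plus strand: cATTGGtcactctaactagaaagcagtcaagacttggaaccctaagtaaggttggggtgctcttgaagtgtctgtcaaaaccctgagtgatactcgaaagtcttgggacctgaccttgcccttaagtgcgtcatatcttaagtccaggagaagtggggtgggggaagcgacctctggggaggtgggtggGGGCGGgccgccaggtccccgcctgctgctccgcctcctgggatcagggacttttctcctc
Col15a1, upstream of the start, chr4:47207762-47208011, plus strand: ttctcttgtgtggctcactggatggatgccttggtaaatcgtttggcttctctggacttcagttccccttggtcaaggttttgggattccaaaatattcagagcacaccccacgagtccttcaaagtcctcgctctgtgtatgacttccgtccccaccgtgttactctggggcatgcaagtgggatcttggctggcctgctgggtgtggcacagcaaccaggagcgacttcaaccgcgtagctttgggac

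Col18a1 (chromosome 10, 77052178 to 77166548, minus strand) is read from an upstream start, which gives the short form, and from a downstream start that gives the longer forms. The transcript of the upstream start (start site 77166548) had 14.02, 16.03 and 8.21 TPM with H1.0 siRNA and TGF-β, and 11.8, 12.2 and 6.52 TPM with scramble and TGF-β. It had 27.6, 24.8 and 19.4 TPM with H1.0 siRNA and vehicle, and 14.5, 17.5 and 11.3 TPM with scramble and vehicle. The transcripts of the downstream start had 21.5, 22.7 and 13.3 TPM with H1.0 siRNA and TGF-β, and 13.9, 15.1 and 8.68 TPM with scramble and TGF-β. They had 41.3, 37.4 and 31.6 TPM with H1.0 siRNA and vehicle, and 19.8, 23.9 and 18.7 TPM with scramble and vehicle. Both starts were thus highest in knockdown cells with vehicle.

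The upstream start took 38.4% ± 1.48 of the reads of both starts with H1.0 siRNA and TGF-β and 43.4% ± 1.26 with scramble and TGF-β (SD, n = 3 each). It took 38.0% ± 0.853 with H1.0 siRNA and vehicle and 39.6% ± 2.45 with scramble and vehicle. The TGF-β libraries did not overlap between the siRNAs, and no test was run on this share, which depends on how Salmon divided reads between transcripts.

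**Figure D5:**
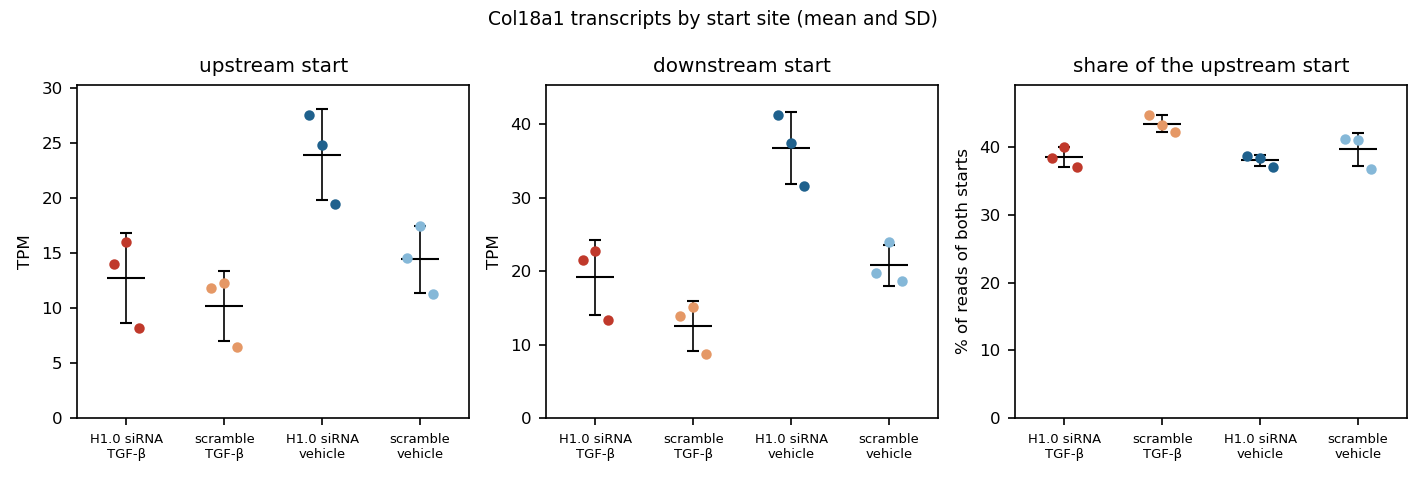
Col18a1 transcripts of the upstream start and of the downstream start in TPM, and the share of the upstream start in the reads of both in percent (vertical axes, from 0), in the 4 groups of 3 libraries, with the mean and SD of each group. Both starts are highest with H1.0 siRNA and vehicle, and the share lies between 36.8% and 44.7% in all libraries.

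The genes most like each of these collagens over the 12 libraries were found by Pearson's r of log2 normalized counts, among 11452 genes with a mean of at least 100. Every gene was compared over the same groups and the same uneven depths, so these values describe the pattern over the libraries and carry no test. The nearest gene to Col4a1 was its partner Col4a2 (r = 0.969), before Slc39a10 and Msi2 (0.963 each). Col4a2 was nearest to Col4a5 (0.970), then to Col4a1 (0.969) and Ppp1cb (0.950), and Col4a5 to Col4a2 (0.970), Ppp1cb and Rpl37a (0.966 each). The partner Col4a6 ranked 35 for Col4a5 (0.929) and Col4a5 ranked 27 for Col4a6, whose nearest genes were Hipk1 (0.955), Tpp1 and Aff3 (0.950 each).

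Col15a1 was closest to Tagln, an actin-binding protein of smooth muscle and activated fibroblasts (r = 0.986), then to Aff1 (0.982) and Palm2 (0.978). Col7a1 was closest to Psmd5, Mtbp and Tuba1c (0.983 each), and Col18a1 to Ctdsp1 (0.983), Nod1 and Pcx (0.982 each). Col18a1 ran opposite to all other 8 collagens here, from −0.471 with Col4a6 to −0.907 with Col7a1.

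Partners of these collagens in the basement membrane were counted next. Of 27 genes, 0 were higher and 3 lower with TGF-β in scramble cells, where 10.5% of all genes were called higher and 7.94% lower. With H1.0 siRNA under TGF-β 2 were higher and 7 lower, where 13% of all genes were called higher and 11.3% lower, with median log2 fold changes of −0.27 and −0.36. TGF-β lowered Nid2 and Nid1, the nidogens that link laminin to collagen IV. Nid2 averaged 2396 ± 555 counts with TGF-β and 6068 ± 1212 with vehicle in scramble cells (log2 fold change −1.34, adjusted p = 0.0034 by edgeR), and Nid1 had a log2 fold change of −0.64 (adjusted p = 0.0021). Smoc2, a SPARC-related protein, changed by −1.50 (adjusted p = 0.0043) with TGF-β and by −1.98 (adjusted p = 6.9e-04) with the siRNA under TGF-β. In that comparison Npnt, the integrin ligand nephronectin (−2.20, adjusted p = 1.1e-05), and Lamb1, a laminin β chain (−1.26, adjusted p = 9.6e-04), fell, and Hmcn2, a hemicentin (1.92, adjusted p = 2.7e-05), and Sparc, which binds collagen IV (0.41, adjusted p = 0.0042), rose.

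Of the 25 genes of collagen assembly and secretion, 14 were higher and 0 lower with TGF-β in scramble cells (median log2 fold change 0.42), against 10.5% and 7.94% of all genes. In knockdown cells 11 were higher and 0 lower with TGF-β (0.40), against 9.14% and 6.6% of all genes. At an unadjusted p under 0.05 in either direction were 18 and 19 of the 25 (41.9% and 39.1% of all genes). The widest among those that passed in scramble cells were Fkbp10, a collagen chaperone (1.12, adjusted p = 4.5e-04), P3h1, a prolyl 3-hydroxylase (1.00, adjusted p = 6.7e-04), and Plod1, a lysyl hydroxylase (0.93, adjusted p = 6.0e-05). With H1.0 siRNA under TGF-β 5 were higher and 4 lower, against 13% and 11.3% of all genes. Those higher were led by Mia2 (0.87, adjusted p = 1.2e-05), P4ha2 (0.80, adjusted p = 4.6e-04) and Colgalt1 (0.74, adjusted p = 1.4e-04). Of the 4 that were lower, P3h2, the prolyl 3-hydroxylase known to modify collagen IV, averaged 73.9 ± 37.7 counts with H1.0 siRNA and 410 ± 104 with scramble (−2.47, adjusted p = 8.6e-04). The others named by the rule were Sar1b, a GTPase of secretory vesicles (−1.18, adjusted p = 3.6e-06), and Tmem131 (−0.38, adjusted p = 0.0038).

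Of 15 receptors of collagen IV and the basement membrane, 4 were higher and 1 lower with TGF-β in scramble cells, and 1 was higher and 3 lower with H1.0 siRNA under TGF-β. Over all genes these shares were 10.5% and 7.94% with TGF-β and 13% and 11.3% with the siRNA. Itga7, the integrin subunit α7 that binds laminin, rose by 1.41 with TGF-β (adjusted p = 3.2e-04) and changed by −1.20 with the siRNA (adjusted p = 3.9e-04). Itga3 (1.16, adjusted p = 0.0030) and Gpc1 (1.01, adjusted p = 4.6e-04) also rose with TGF-β, and Ddr2, a collagen receptor of fibroblasts, fell (−0.65, adjusted p = 6.9e-04). With the siRNA Bcam, a laminin receptor (−0.93, adjusted p = 0.0014), and Sdc1 (−0.60, adjusted p = 0.0011) fell and Sdc4 rose (0.88, adjusted p = 7.9e-04).

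Among 14 proteases that cut collagen IV and their inhibitors 13 were tested, and Mmp7 was listed at 0 in every library. With TGF-β in scramble cells 4 were higher and 5 lower, and with H1.0 siRNA under TGF-β 3 were higher and 3 lower, against 10.5% and 7.94% of all genes with TGF-β and 13% and 11.3% with the siRNA. TGF-β raised Timp1, an inhibitor (1.92, adjusted p = 3.1e-04), Mmp9, a gelatinase that cuts collagen IV (1.91, adjusted p = 0.0015), and Mmp14 (0.82, adjusted p = 7.3e-04), and lowered Mmp12, the macrophage elastase (−1.39, adjusted p = 1.8e-04), Timp2 (−0.92, adjusted p = 0.0025) and Ctsb (−0.65, adjusted p = 8.3e-05). Under TGF-β the siRNA raised Adam9 (0.88, adjusted p = 2.4e-04) and Mmp14 (0.58, adjusted p = 0.0038) and lowered Mmp9 (−1.58, adjusted p = 0.0025), Mmp12 (−1.37, adjusted p = 7.9e-05) and Timp2 (−1.26, adjusted p = 2.3e-04). The 10 macrophage markers summed to 619 to 933 TPM with H1.0 siRNA and TGF-β, 1051 to 1100 TPM with scramble and TGF-β, 1141 to 1242 TPM with H1.0 siRNA and vehicle and 1423 to 1576 TPM with scramble and vehicle. These sums were led by Lyz2 (358 to 1010 TPM). Under TGF-β the siRNA lowered 2 of the 10, Lyz2 and C1qb, and raised 0 by edgeR's test. The list's median log2 fold change was −0.01, and Adgre1 (0.53) and Itgam (0.59) had higher means. The part of macrophages in the change of Mmp12 was not tested.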

How the data were processed

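RNA-seq of 12 cultures of mouse cardiac fibroblasts was analysed, 3 per group. After removal of ribosomal RNA the authors read fragments from both ends and quantified transcripts with Salmon on mm10 with Ensembl transcripts, and the submitters' processing notes name Salmon, DESeq2 and mm10. The deposited values are an estimated count and a TPM value for every transcript of a library. TPM divides by effective transcript length and sums to the same total in each library, so no fold change of a gene was tested on it. It was used to compare genes, for the marker sums over all their transcripts, for the starts of Col18a1 and as an alternative for the pair ratios. The marker sums and starts were compared between groups without scaling or a test. Of 117135 transcripts 115973 matched genes of GENCODE M21 (GRCm38) by identifier, holding 99.54% to 99.6% of the reads. Estimated counts were summed per gene and rounded.

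Genes reaching 10 counts summed over all libraries entered 1 fit of the 4 groups by quasi-likelihood in edgeR 4.0.16 (R 4.3.3, TMM), Benjamini-Hochberg adjusted over 18028 genes, with calls at 0.01. The count minimum and the threshold follow the study. The standard error is the size of the fold change over the square root of F. Normalized counts are CPM by TMM at the mean library size. TPM values of the 9 genes used coding transcripts of at least 4000 bases, since reads on short fragments of a gene raise its summed TPM. Ratios within pairs were tested by exchanging labels within each arm (400 arrangements, exact permutation, two-sided, adjusted over 6 tests, threshold 0.05).

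The libraries share replicate numbers. Deviations from the group means correlated between same-numbered libraries at 0.134 to 0.382 for TGF-β against vehicle in scramble cells, 0.188 to 0.379 in knockdown cells and 0.138 to 0.420 for the siRNA with TGF-β, so these comparisons were taken as paired by the data, since the sources used here do not say what a number marks. The block was fitted over all 12 libraries at once, so it also used the pairs of the siRNA with vehicle, whose lowest correlation was 0.0803. The study's methods call the replicates biological, from different animals or isolations, which is the spread that the p-values measure.

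The genes named are the 9 collagens, H1f0, for collagens with a mean count of at least 100 the 3 most correlated genes, and up to 3 called genes per direction of each pathway list whose higher group averaged 100 counts or more. Markers were named after their values were seen. The genes, lists and rules were chosen with earlier results of these data known. Alternatives were RLE size factors, TMM without the 1% most abundant genes, DESeq2 1.42.0, limma-voom (limma 3.58.1), other count filters, a replicate block, a transcript length offset, thinning and each library left out. The fit was tested on simulated counts with 200 changed genes. For TGF-β in scramble cells the recovered share was 12%, 66%, 96% and 100% at log2 changes of 0.5, 1, 1.5 and 2, with 1 false call of 17760 genes. For the siRNA under TGF-β it was 12%, 76%, 96% and 98%, with 7 false calls of 17769 genes.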

Additional observations from a re-analysis of the deposited data

Results flagged for a closer look

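Col15a1 was singled out because its response to TGF-β differed between the siRNAs at an adjusted p under 0.05 for the interaction, although not under the 0.01 used for calls. Its response was 2.95 on the log2 scale in knockdown cells and 1.02 in scramble cells, a difference of 1.94 (adjusted p = 0.040 by edgeR). Over the alternatives the difference ran from 1.39, with only replicates 1 and 2 of every group, to 2.11, without H1.0 siRNA TGF-β replicate 2, and its adjusted p from 1.7e-05 (DESeq2) to 0.11 (without scramble vehicle replicate 2). In both arms all 3 libraries with TGF-β were above all 3 with vehicle. The knockdown libraries with TGF-β, behind the larger response, were among the deepest, and the part of depth in it was not tested.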

How the results depend on the processing

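Of the fold changes of the 9 genes, 595 kept direction and side of the threshold with a library left out (10 gained a call, 29 lost it, 14 changed sign), as did 494 under other settings (32 gained, 3 lost, 11 changed sign). A replicate block called 4 of the 9 genes for TGF-β in knockdown cells (26.8% of all genes) and 7 for the siRNA under TGF-β (33.6%). For knockdown cells with TGF-β against scramble cells with vehicle it called 5 of the 9 and 42.5% of all genes. It called 5125, 4825 and 118 of all genes for TGF-β in scramble cells, TGF-β in knockdown cells and the interaction. For the siRNA with vehicle the numbers did not pair the libraries by the rule used (lowest correlation 0.0803, with 5 of 6 libraries closest to their own number), and the block called 9 of the 9 and 33.6% of all genes. Nor did they for knockdown cells with TGF-β against scramble cells with vehicle (lowest correlation 0.0577). Sign-flip tests of the paired ratios, whose smallest p is limited by the 6 pairs, lost the calls of Col4a1 to Col4a2 with TGF-β (0.1453, adjusted p = 0.0625) and siRNA (0.068, 0.094), of Col4a3 to Col4a4 with siRNA (0.72, 0.0625) and of Col4a5 to Col4a6 with TGF-β (0.25, 0.0625), by exact permutation. Those at 0.0625 had all 6 pairs in the same direction, so their loss was set by the test. The tests of the siRNA also include vehicle pairs, which the numbers did not pair by the rule above. With TPM the ratio of Col4a1 to Col4a2 for the siRNA was 0.0594 and not called.

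DESeq2 called 3, 5 and 1 of the 9 for TGF-β in knockdown cells, the siRNA under TGF-β and the interaction. Of the genes it tested it called 27.8%, 31.2% and 1.77% there, the last being 239 genes. A length offset called 1 of the 9 for TGF-β with scramble, 1 for the siRNA under TGF-β and 1 gene in all for the interaction, for which limma-voom called 4. For TGF-β with scramble and the siRNA under TGF-β, the calls over all genes with this offset are not given here. A loss specific to the 9 genes therefore cannot be told from a general one. With only replicates 1 and 2 of every group, chosen after seeing the data, 4 of the 9 and 17.8% of all genes were called for TGF-β in knockdown cells. For the siRNA under TGF-β 6 of the 9 and 25.2% of all genes were called, and for the interaction 18 of all genes. In that setting Col4a6 was 0.030 for TGF-β in knockdown cells and Col15a1 −0.024 for knockdown cells with TGF-β against scramble cells with vehicle. There Col18a1 was −0.0231 with RLE size factors, −0.0232 with DESeq2, −0.0250 with limma-voom, −0.0186 with filterByExpr, −0.0241 with the block and −0.0140 thinned. For TGF-β in scramble cells Col4a3 was −0.00446 with filterByExpr, −0.00964 with the length offset and −0.0577 thinned.

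With 1 library left out, 1 to 2 of the 9 were called for TGF-β in scramble cells (1871 to 3597 of all genes) and 1 to 3 in knockdown cells (1589 to 2884). For the siRNA under TGF-β 0 to 3 were called (3231 to 4468 of all genes). For knockdown cells with TGF-β against scramble cells with vehicle 1 to 3 were called (4916 to 6328 of all genes). For the interaction 0 to 12 of all genes were called. Col4a3 and Col4a4 ran from −0.50 to 0.63 and from −0.25 to 0.56 for TGF-β in scramble cells, Col4a6 from −0.18 to 0.080 for TGF-β in knockdown cells, Col4a3 from −0.16 to 1.33 for the interaction, and Col15a1 and Col18a1 from −0.074 to 0.42 and from −0.16 to 0.21 for knockdown cells with TGF-β against scramble cells with vehicle. The cause of these changes was not tested. Col4a3 and Col4a4 rest on few reads, and in the simulation many changes of 1 on the log2 scale or less were missed.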
